A study of Gallus gallus with 12 samples.

Results

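Microglia of chicks that had received no heat conditioning were compared 24 h after lipopolysaccharide (LPS) with microglia of equally unconditioned chicks 24 h after saline. The comparison was defined by the library titles, which place 3 LPS libraries and 3 saline libraries in it, 6 of the 12 in the series. Gallus gallus chicks received LPS or saline into the third ventricle on day 10 after hatching and were sampled on day 11. Each library came from a pool of the anterior hypothalami of 10 to 12 chicks, from which microglia were collected by fluorescence-activated cell sorting. No genetic change is named for any bird, and both groups were kept without the day 3 heat (39°C for 24 h) that the 6 conditioned libraries of the series share. The conditioned libraries, 3 after LPS and 3 after saline, entered the same model and served otherwise as a side view. How many birds contributed how much to a pool is not given, so a value is a mean over birds.

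Microglia are the resident macrophages of the brain. LPS, a component of the outer membrane of Gram-negative bacteria, is sensed in vertebrate macrophages mainly through a Toll-like receptor complex, whose signalling switches on NF-kB and with it genes of cytokines, chemokines and antimicrobial proteins. The anterior hypothalamus holds neurons that sense and regulate body temperature. None of these genes could be looked up by name here: the deposited table gives Ensembl gene identifiers in its name column too, and 0 of its 11207 identifiers could be paired with a symbol from the gene list at hand. For the same reason the sorted cells could not be checked against microglial markers or against markers of neurons, other glia or blood cells. Genes are therefore described by their measured behaviour, with 2 raised and 2 lowered ones given by identifier and the others by their rank of change. Those given by identifier were picked among called genes whose LPS and saline libraries did not overlap.

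The counts came from the 3′ ends of transcripts and were expressed as CPM, counts scaled to an equal library total and corrected by TMM (a method that assumes most genes do not differ between libraries). Total counts ran from 300739 to 615505 in the LPS libraries and from 189180 to 510210 in the saline libraries. The shallowest was saline replicate 2, in which a floor of 3 counts amounted to 15.9 CPM. Between 8456 and 9499 genes had a count in an LPS library and between 7698 and 8694 in a saline library. Across the 5170 tested genes, log2 CPM correlated at 0.905 to 0.936 among LPS libraries, at 0.884 to 0.895 among saline libraries and at 0.886 to 0.938 between LPS and saline libraries. By this measure an LPS library was as like a saline library as the saline libraries were like each other. Counting error lowers such a correlation and the saline group holds the shallowest library. The part of depth in these values was not tested.

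LPS raised 23 genes and lowered 5 of 5170 tested in microglia of unconditioned chicks (quasi-likelihood test of edgeR, adjusted by Benjamini-Hochberg to p under 0.05). That is 0.542% of the tested genes, with 0.445% raised and 0.0967% lowered. The raised genes changed by more: 22 of 23 rose at least 2-fold and 8 at least 4-fold, whereas 1 of 5 lowered genes fell at least 2-fold. The lowest and highest log2 fold changes were 0.81 and 5.21 among raised genes and -1.29 and -0.79 among lowered genes. Over all tested genes the log2 fold changes were centred at -0.01, with quartiles at -0.24 and 0.28. A further 24 genes, 13 of them higher and 11 lower after LPS, had an adjusted p between 0.05 and 0.1. Before adjustment, 236 genes were higher and 246 lower after LPS at p under 0.05 (9.32% of those tested). If no gene differed, 258.5 would be expected by chance at that threshold.

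**Figure D1:**
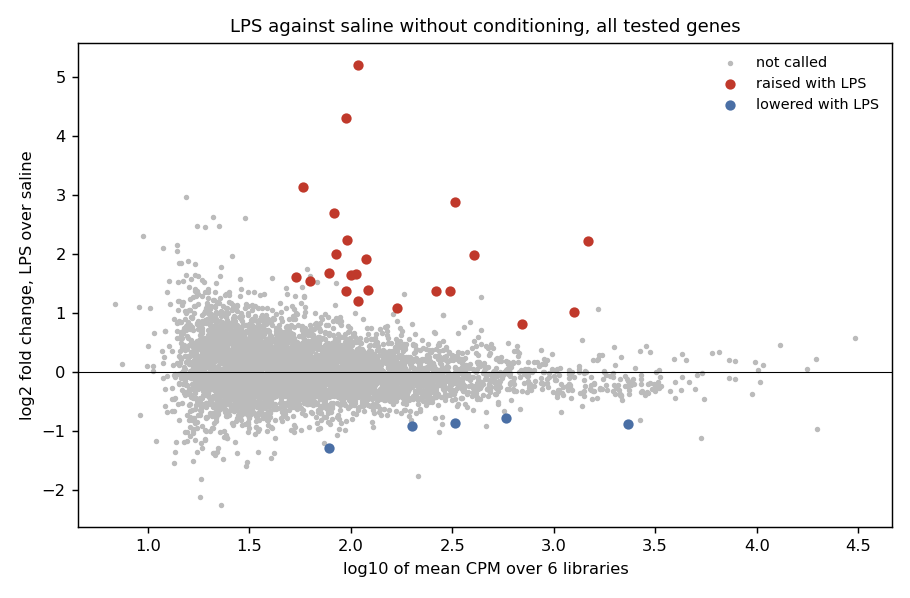
Log2 fold change, LPS over saline, against the log10 of the mean CPM over the 6 libraries, for the 5170 tested genes (each point a gene). The 23 raised and 5 lowered genes are coloured over a cloud that widens towards low levels. Raised genes reach a log2 fold change of 5.21 and lowered ones stop at -1.29, while genes not called fall as far as -2.26.

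No outright switch between the groups was seen at this depth. Among all 11207 genes in the table, 0 had at least 3 counts in each LPS library and no count in any saline library, and 0 showed the opposite pattern. Of the raised genes, 1 had every saline library at or under 3 counts, and 5 had at least 1 such saline library.

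ENSGALG00000010915.4 had the largest rise. It was at 564, 50.4 and 20.1 CPM in LPS replicates 1 to 3, from 172, 31 and 6 counts, and at 3.05, 5.48 and 6.69 CPM in saline replicates 1 to 3, from 1, 1 and 3 counts. All 3 LPS libraries lay above all 3 saline libraries, but the LPS libraries differed 28.1-fold among themselves. The log2 fold change was 5.21 ± 1.09 (SE, edgeR adjusted p = 0.0290). Summed over libraries, 209 counts after LPS stood against 5 after saline, a ratio of 32.9 after scaling (exact Poisson 95% interval 13.9 to 102, counting error only). Leaving out LPS replicate 1 took the log2 fold change to 2.82 and ended the call (edgeR adjusted p = 0.139). Without saline replicate 1, 2 or 3 the log2 fold change stayed at 4.94, 5.24 and 5.58, but the gene was no longer called (edgeR adjusted p = 0.0700, 0.118 and 0.146). Adjusted p over the 12 alternatives that gave a value ran from 8.59e-27 to 0.624. The lowest came from the edgeR fit with no filter on low counts alone, and the next lowest was 0.00213, without LPS replicate 3 (edgeR). The other 2 alternatives, a minimum count of 30 and the 6 compared libraries alone, did not test this gene because it failed their count filter.

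ENSGALG00000033171.1 also rose in all pools, and again most in LPS replicate 1. Its level was 1217, 358 and 157 CPM after LPS and 97.6, 65.7 and 66.9 CPM after saline. The lowest LPS library was 1.61 times the highest saline library. The gene rose by 2.88 ± 0.50 on the log2 scale (SE, edgeR adjusted p = 0.00539). It was still called without LPS replicate 1, at a log2 fold change of 1.81 (edgeR adjusted p = 0.00893). Of 14 alternatives, 12 called it, with adjusted p from 2.22e-30 to 0.202. The lowest again came from the edgeR fit with no filter on low counts alone, and the next lowest was 7.94e-05, without LPS replicate 3 (edgeR). The call ended without saline replicate 2 (edgeR adjusted p = 0.0523) and under limma with library weights (adjusted p = 0.202).

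**Figure D2:**
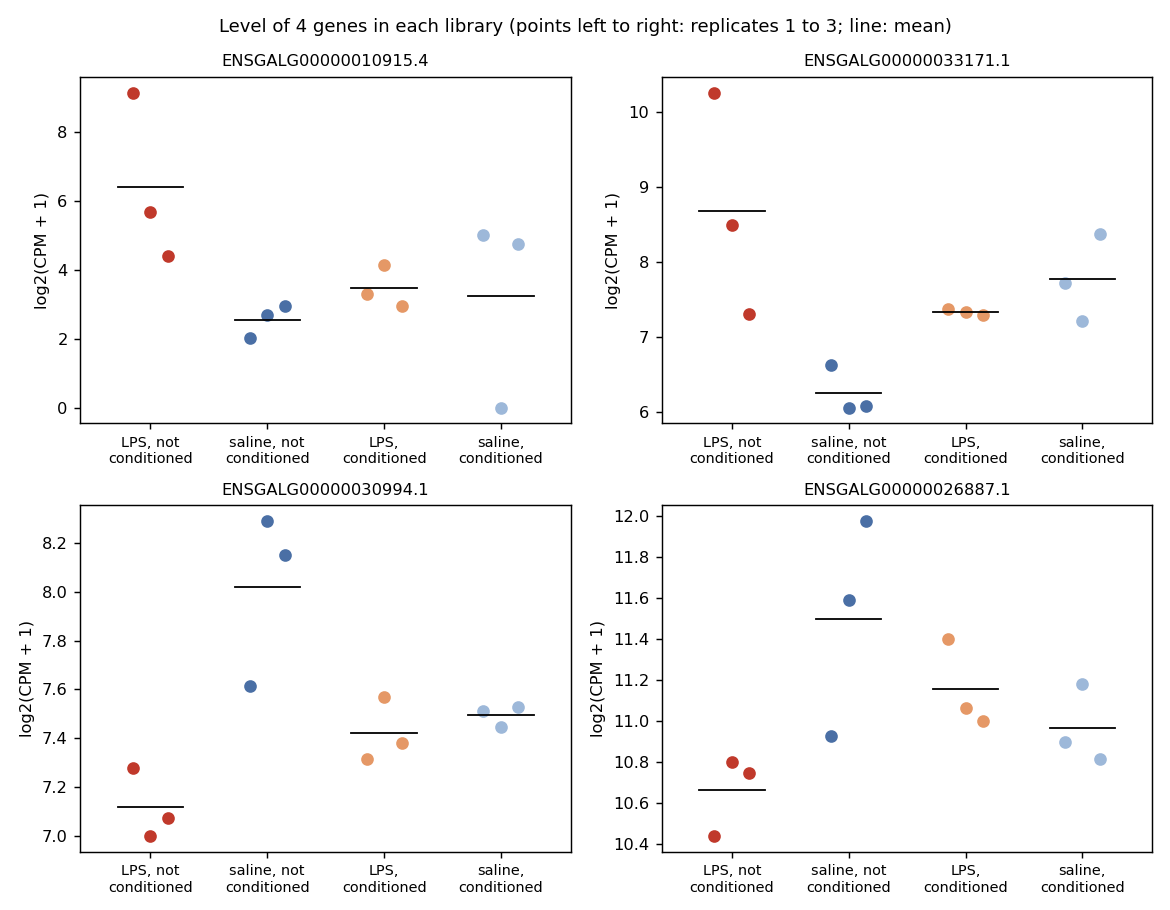
Level of the 2 raised genes (top) and 2 lowered genes (bottom) in each library, as log2(CPM + 1), for LPS and saline without conditioning and then with it. Points are replicates 1 to 3 from left to right and lines are group means, and each panel has its own axis. In all 4 panels the LPS and saline points of unconditioned chicks do not overlap, as the rule that picked these genes required.

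Of the 23 raised genes, 6 were called again whichever of the 6 compared libraries was left out, and 4 of those 6 were called in all 14 alternatives (these 6 fits and 8 other settings). These 4 held ranks 3, 7, 9 and 10 by size of rise. The gene at rank 9 was at 767, 742 and 431 CPM after LPS and at 192, 120 and 170 CPM after saline. It rose by 1.98 ± 0.21 on the log2 scale (SE, edgeR adjusted p = 2.79e-05), the smallest adjusted p of the comparison, and over the alternatives its adjusted p stayed at or below 0.000504.

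The gene at rank 7 was the most abundant raised gene after LPS. It stood at 2873, 2368 and 2056 CPM after LPS and at 293, 515 and 743 CPM after saline. Here the saline pools were the more spread, and the lowest LPS library was 2.77 times the highest saline one. The log2 fold change was 2.22 ± 0.29 (SE, edgeR adjusted p = 0.000231), between 1.95 and 2.63 with a library left out.

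The gene at rank 10 was at 138, 233 and 194 CPM after LPS and at 51.8, 38.3 and 55.8 CPM after saline. Its log2 fold change was 1.92 ± 0.27 (SE, edgeR adjusted p = 0.000565). Unlike most raised genes it was lowest in LPS replicate 1. The gene at rank 3 had the narrowest LPS group of the 23 raised genes, at 105, 111 and 93.6 CPM, against 6.10, 21.9 and 11.2 CPM after saline. Its highest saline value rests on 4 counts, and the lowest LPS library was 4.27 times the highest saline one. With a library left out its log2 fold change lay between 2.84 and 3.51.

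The other 2 genes called with any library left out held ranks 5 and 8, with estimated rises of 6.47-fold and 4.01-fold (edgeR adjusted p = 0.00161 and 0.00132). Each was called in 13 of 14 alternatives, and their largest adjusted p were 0.234 and 0.0658. At the other end, 4 raised genes kept their call in 1 of the 6 leave-one-out fits, 6 in 2 of them and 4 in 3. The gene at rank 2 is one of these. It was at 390, 135 and 6.68 CPM after LPS, from 119, 83 and 2 counts, and at 6.10, 27.4 and 2.23 CPM after saline, from 2, 5 and 1 counts. LPS replicate 3 lay within the saline range, the only overlap among the 28 called genes. Its log2 fold change was 4.30 ± 0.93 (SE, edgeR adjusted p = 0.0320), and it was called in 4 of 12 alternatives. A minimum count of 30 and the 6 compared libraries alone did not test it either.

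The LPS libraries differed in how far the raised genes stood above saline. LPS replicate 1 was the highest LPS library in 14 of the 23 raised genes, against 36.9% of all tested genes, and LPS replicate 3 was the lowest in 17 of 23, against 34.6% of all tested genes. Relative to the saline mean of each gene, the median log2 level of the 23 genes was 2.05, 1.80 and 1.20 in LPS replicates 1 to 3 and 0.10, -0.20 and 0.10 in saline replicates 1 to 3. The same median over all tested genes lay between 0.01 and 0.03 in these 6 libraries, a closeness to 0 that the TMM scaling itself favours. Within the raised genes the highest LPS library exceeded the lowest by a median of 1.83-fold (range 1.18 to 58.4). Over the tested genes with a count in every LPS library that median was 1.56-fold. Among the saline libraries the same raised genes spanned a median of 2.13-fold (range 1.23 to 12.3). They rested there on fewer counts, summing to 1014, 492 and 1520 in saline replicates 1 to 3. The sums in LPS replicates 1 to 3 were 3486, 5957 and 2193. Counting error is larger at fewer counts, and no saline median over all tested genes was computed. The LPS and saline spans therefore cannot be compared. The separation of LPS from saline is built into how these genes were called, so the medians describe the pools and are no further evidence of a rise.

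**Figure D3:**
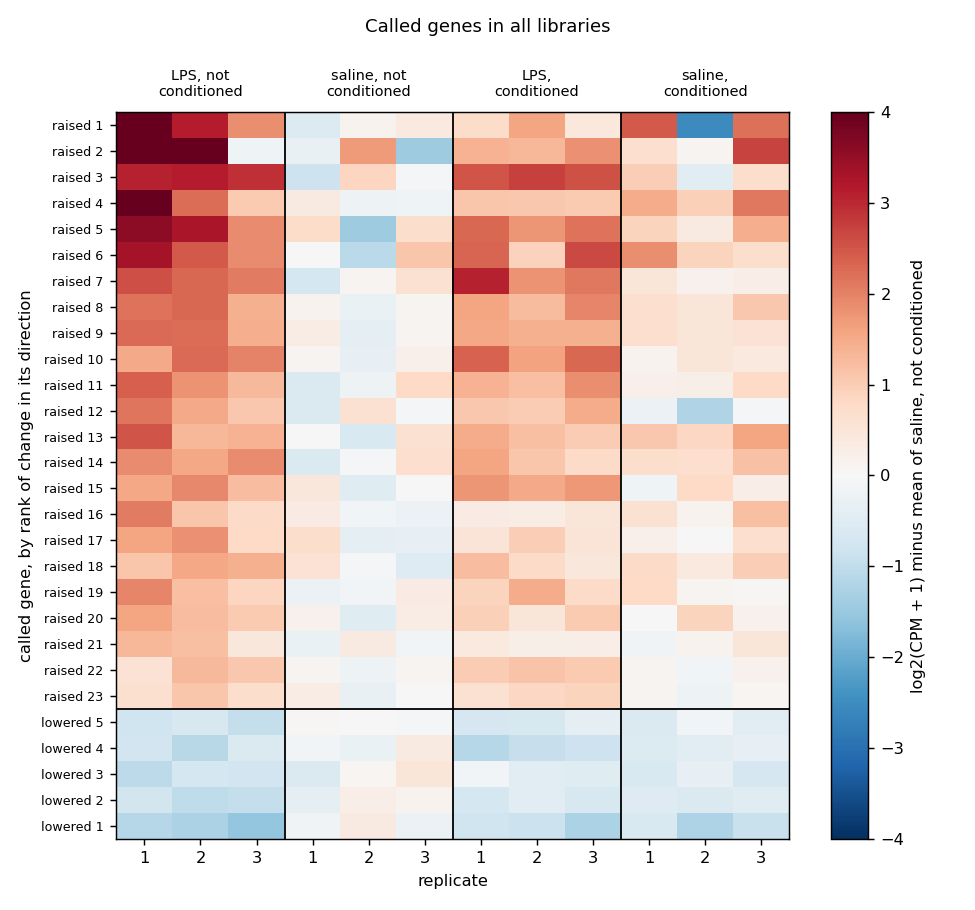
The 28 called genes (rows, by rank of change) in all 12 libraries (columns, by group and replicate), coloured by log2(CPM + 1) minus the gene's mean in unconditioned saline libraries, with values beyond 4 in size drawn at 4. The 23 raised genes are mostly redder in LPS replicates 1 and 2 than in LPS replicate 3 of unconditioned chicks (medians 2.05, 1.80 and 1.20), and the 5 lowered genes are pale blue in all 3.

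As a share of each library, the 23 raised genes took 1.10%, 0.968% and 0.729% of all counts in LPS replicates 1 to 3 and 0.321%, 0.260% and 0.298% in saline replicates 1 to 3. The 95% Wilson interval was widest relative to its value in saline replicate 2, at 0.238% to 0.284%, and covers counting error only. The 5 lowered genes took 0.217%, 0.261% and 0.253% after LPS and 0.353%, 0.446% and 0.494% after saline.

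The lowered genes fell by less, and by similar amounts in the LPS pools. A small fall is more readily called where pools are even, so the call itself favours this evenness. ENSGALG00000030994.1 was at 154, 127 and 134 CPM after LPS and at 195, 312 and 283 CPM after saline. The groups did not overlap, with saline replicate 1 nearest to the LPS libraries. Its log2 fold change was -0.93 ± 0.19 (SE, edgeR adjusted p = 0.0290). The call was kept in 9 of 14 alternatives (adjusted p from 0.00471 to 0.187). It ended in the fit on the 6 compared libraries alone (adjusted p = 0.139) and without LPS replicate 2 or 3 or saline replicate 2 or 3, where the log2 fold change lay between -0.90 and -0.80.

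ENSGALG00000026887.1 was the most abundant lowered gene. It was at 1387, 1784 and 1715 CPM after LPS and at 1948, 3077 and 4018 CPM after saline. The LPS libraries spanned 1.29-fold and the saline libraries 2.06-fold, and the lowest saline library was 1.09 times the highest LPS library. The log2 fold change was -0.89 ± 0.20 (SE, edgeR adjusted p = 0.0483), just inside the threshold. Only 5 of 14 alternatives called it, and adjusted p ran from 0.000517, with no filter on low counts, to 0.308. Without saline replicate 1 the log2 fold change was -1.10 (edgeR adjusted p = 0.00276) and without saline replicate 3 it was -0.62 (edgeR adjusted p = 0.308).

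Of the other 3 lowered genes, the one with the largest fall was at 49.2, 45.5 and 36.8 CPM after LPS and at 101, 142 and 93.7 CPM after saline. The one with the smallest fall was the most even within groups, at 426, 467 and 378 CPM after LPS and 765, 745 and 694 CPM after saline, and it fell by 0.79 ± 0.17 on the log2 scale (SE, edgeR adjusted p = 0.0290). None of the 5 was called in more than 3 of the 6 leave-one-out fits.

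In 27 of the 28 called genes, 22 raised and 5 lowered, the LPS and saline libraries did not overlap. Among all tested genes the LPS libraries lay above every saline library in 5.67% and below every saline library in 5.9%, so the lack of overlap alone was common. Across genes the standard deviation of log2 CPM had a median of 0.31 among LPS libraries and 0.37 among saline libraries. With conditioning it was 0.24 after LPS and 0.26 after saline. Total counts of the conditioned libraries ran from 451683 to 504861 after LPS and from 236219 to 963146 after saline. The standard deviation also depends on depth, and the part of depth in these differences was not tested.

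**Figure D4:**
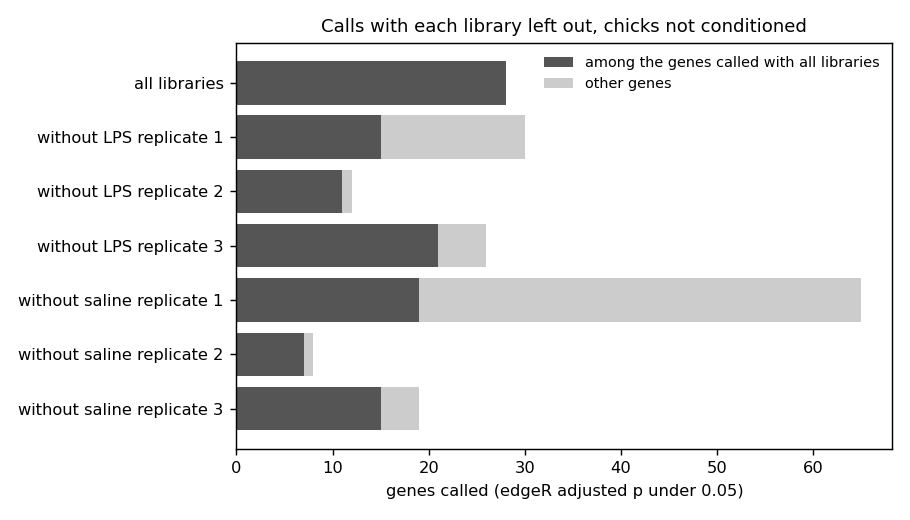
Number of genes called (edgeR adjusted p under 0.05) with all libraries and with each compared library left out. Dark bars count genes among the 28 called with all libraries and light bars count other genes. Leaving out saline replicate 2 leaves 8 calls and leaving out saline replicate 1 gives 65.

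The number of called genes depended on single libraries. Without saline replicate 2, the shallowest library, 8 genes were called, all raised, and 7 of them were among the 28. No lowered gene was called then with edgeR, where 215 were lower at an unadjusted p under 0.05. Without saline replicate 1, 65 genes were called, 48 raised and 17 lowered, and 19 of the 28 were among them. Without LPS replicate 2, the deepest compared library, 12 were called, of which 11 were among the 28. Without LPS replicate 1, 30 genes were called, yet only 15 of the 28 were among them, with 18 raised and 12 lowered. Removing LPS replicate 3 gave 25 raised and 1 lowered gene, and removing saline replicate 3 gave 17 raised and 2 lowered. When the model held only the 6 compared libraries it called 11 genes, all raised and all among the 28. No lowered gene was called in that fit, where 111 were lower at an unadjusted p under 0.05. DESeq2 called 26 raised and 9 lowered genes and kept 27 of the 28. Limma with library weights called 7 raised and 4 lowered genes and kept only 9 of the 28, 6 raised and 3 lowered.

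Most called genes came from the more abundant part of the tested genes, by a mean that includes the LPS libraries. Ordered by mean CPM over the 6 libraries, the 1293 least abundant tested genes (6.93 to 29.9 CPM) gave 0 calls with edgeR and the next 1292 (29.9 to 55.8 CPM) gave 1. The 1292 genes above them (55.8 to 121 CPM) gave 14 and the 1293 most abundant gave 13. Among the least abundant the 95% interval of a log2 fold change had a median half-width of 1.08, so a change of 2-fold in a typical gene there was not resolved. Among the most abundant the half-width was 0.41. Altogether 213 genes (4.12% of those tested) had an estimated change of at least 2-fold in either direction, of which 190 were not called.

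The called genes were also read in conditioned chicks, whose 6 libraries share no sample with this comparison. Those libraries did enter the shared estimate of the spread, so they had a part in which genes were called. LPS over saline had the same sign there in 18 of the 23 raised and 4 of the 5 lowered genes. The share of all tested genes with the same sign was not computed, so these counts have no background to be judged by. From the largest to the smallest fall, the 5 lowered genes had conditioned log2 fold changes of -0.10, -0.08, 0.20, -0.52 and -0.17. None of the 5 was called there (edgeR adjusted p from 0.429 to 0.984). Of the 23, 6 were called raised in conditioned chicks too, among them those at ranks 3, 7 and 10. These 6 were all the genes called raised there, 0.116% of those tested, where 0.174% were called in either direction. On the scale relative to the unconditioned saline mean, the median of the raised genes was 1.16, 1.11 and 1.03 in conditioned LPS libraries and 0.59, 0.21 and 0.59 in conditioned saline libraries. The lowered genes stood at -0.69, -0.62 and -0.63 after LPS and at -0.56, -0.45 and -0.49 after saline with conditioning. Since these genes were chosen for the distance between the 2 unconditioned groups, a smaller distance in other libraries is favoured by the choice itself.

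**Figure D5:**
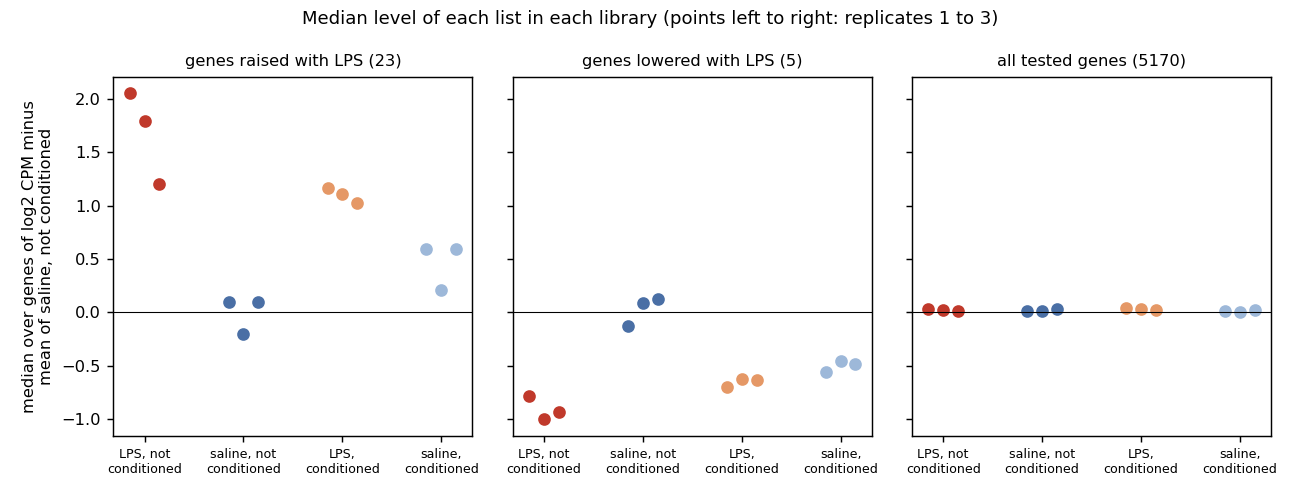
Median over the 23 raised, 5 lowered and 5170 tested genes of log2 CPM minus the gene's mean in unconditioned saline libraries, 1 point per library, replicates 1 to 3 from left to right. Raised genes sit at 1.20 to 2.05 in unconditioned LPS libraries and at 1.03 to 1.16 in conditioned LPS libraries. All tested genes stay near 0 in every library, which the TMM scaling itself favours.

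ENSGALG00000033171.1 had the smallest interaction p of all tested genes. In conditioned chicks it was at 165, 160 and 156 CPM after LPS and 211, 148 and 330 CPM after saline, which is -0.58 ± 0.44 on the log2 scale (SE, edgeR adjusted p = 0.830). The difference between the LPS effects, conditioned minus unconditioned, was -3.46 (95% interval -4.84 to -2.08), which did not pass over all genes (edgeR interaction adjusted p = 0.172). That adjusted p ran from 6.68e-24, with no filter on low counts, to 0.853, without conditioned saline replicate 3, over 19 alternatives. It was 0.00132 without unconditioned LPS replicate 3, and above 0.05 in every alternative except this and the fit with no filter. The gene was picked for its rise without conditioning. ENSGALG00000010915.4 was at 8.78, 16.6 and 6.80 CPM after LPS and 31.1, 0 and 25.8 CPM after saline in conditioned chicks. Conditioned saline replicates 1 and 3 thus lay above unconditioned LPS replicate 3 (20.1 CPM). Its difference of -6.27 (95% interval -9.64 to -2.90) did not pass (edgeR interaction adjusted p = 0.386). ENSGALG00000026887.1 was at 2703, 2137 and 2043 CPM after LPS and 1908, 2318 and 1799 CPM after saline in conditioned chicks. Its difference of 1.08 (95% interval 0.49 to 1.68) did not pass either (edgeR interaction adjusted p = 0.386). Nor did that of ENSGALG00000030994.1, at 0.85 (95% interval 0.30 to 1.40, edgeR interaction adjusted p = 0.482). The raised genes called in all 14 alternatives, at ranks 3, 7, 9 and 10, had conditioned log2 fold changes of 1.97, 2.11, 0.89 and 1.80. Their differences were -1.17, -0.11, -1.09 and -0.12, and none passed (edgeR interaction adjusted p from 0.386 to 0.969). The interaction called 0 of 5170 genes with edgeR, DESeq2 and limma with library weights, where 372 (7.2% of those tested), 205 and 377 genes passed p under 0.05 before adjustment. By chance 258.5 would be expected to pass, so the DESeq2 count was under that number and the others above it.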

How the data were processed

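Per the labels' protocols, 15 ng of RNA per pool entered bulk MARS-seq, which reads transcript 3′ ends, with 100 bp single reads at about 25 M per library. Named in the submitters' processing notes are the tools cutadapt, STAR, HTSeq and DESeq2 and the build galGal5. Versions, annotation, use of molecular identifiers and strand setting were not given in the sources used here, so overlapping, antisense and near-identical genes are uncertain and counts may be reads or molecules. Raw counts were deposited by the authors for 11207 genes. A normalized signal, also deposited by the authors, equals the count times 1 factor per library (1.13 to 6.25) and served as an alternative scaling. Total counts of the 6 libraries were 0.757% to 2.46% of the stated reads. A reference list of 25635 chicken genes paired 0 identifiers, so planned marker and pathway lists were not applied.

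In R 4.3.3, filterByExpr (minimum count 10) kept 5170 genes. A single quasi-likelihood model in edgeR 4.0.16 held all 12 libraries (TMM, 1 mean per group, no covariate, 2-sided), and pooled the spread over the 4 groups. Calls were made at p under 0.05 after Benjamini-Hochberg adjustment. SE is the log2 fold change divided by the square root of F. Log2 CPM used a prior count of 2. Alternatives used DESeq2 1.42.0 and limma 3.58.1. The fit was tested on simulated data as a check of the code. The simulated counts had the same spread in every group and no deviating pool, so they do not bear on calls that turn on a single library. Identifiers are printed for the 2 largest rises and 2 largest falls among called genes averaging at least 100 CPM over the 6 libraries with no overlap of groups; the genes at ranks 2, 3, 5, 7, 8, 9 and 10 and the other lowered genes were described after their values were seen. The comparison and this rule were chosen with earlier results of these data known. Replicates are separate pools as far as the labels say. Replicate numbers were not taken as pairs in the main fit. Deviations from the group means correlated between same-numbered unconditioned LPS and saline libraries at -0.11 to 0.04. Counting error in such shallow libraries lowers this correlation, so it cannot exclude a batch shared by replicate number.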

Additional observations from a re-analysis of the deposited data

How the results depend on the processing

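LPS without conditioning changed 28 genes, 23 raised and 5 lowered. No filter on low counts gave 80 (56 raised, 24 lowered), limma with library weights 11 (7 raised), the compared libraries alone 11 (11 raised, 0 lowered), and an adjusted p under 0.1 gave 52 (36 raised, 16 lowered). DESeq2 gave 9 lowered. Leaving out a library gave 8 to 65 called, 8 to 48 raised and 0 to 17 lowered. Library size factors by RLE gave 30, the authors' factors 25 and a minimum count of 30 gave 30. With replicate number as a replicate block the count was 25, with 23 of the 28 kept. Fewer genes were tested with the compared libraries alone (3817). Of the 28, 26 were among them and 11 kept their call, and those not tested were the raised genes at ranks 1 and 2. The cause of the moves between settings was not tested. The median change of all genes on the log2 scale stayed between -0.042 and -0.00062 under the 3 scalings. In conditioned chicks 9 genes were called, against 65 with no filter, 15 with DESeq2, 25 with library weights and 54 with the compared libraries alone, and 2 to 8 with a library left out. The interaction called 0 genes, 35 with no filter and 0 to 5 with a library left out. Over all alternatives of the 4 genes given by identifier, 33 values kept direction and call, 21 lost the call and 0 reversed. Depth limits what could be seen: in the shallowest library 3 counts are 15.9 CPM.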
